A study of Mus musculus with 4 samples.

Results

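Expression of 10 genes of endothelial cells and of vascular endothelial growth factor (VEGF) signalling was examined in the adult right testis of hemicastrated and sham-operated mice. The genes were taken by name: Pecam1, Cdh5, Kdr, Flt1, Vegfa, Tek, Tie1, Egfl7, Esam and Vwf. All 10 were found among the 22073 genes of the deposited table. The hemicastrated group was 2 mice that had lost the left testis by surgery before puberty, and the control group was 2 mice given a sham operation at that time, all healthy males of the KM strain with no transgene or drug named. In every mouse the right testis was frozen at maturity, and no age in days or weeks is given in the labels. The design text gives 2 mice per group where the treatment protocol has 3, and there is 1 library for each of 4 individuals. Poly(A) RNA was sequenced from whole organ, so a value cannot be assigned to a cell type. A difference in endothelial cell number and one in RNA per endothelial cell cannot be told apart either.

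Testis arteries run beneath the capsule and branch into a capillary net in the interstitium between the seminiferous tubules, beside the Leydig cells, and no vessels enter the tubules. Endothelial cells line these vessels and are held together by Cdh5, Pecam1 and Esam. They sense the growth factor Vegfa through the receptor tyrosine kinases Kdr and Flt1, and angiopoietins through Tek with its partner Tie1. Egfl7 and Vwf are secreted by these cells into the matrix and the blood.

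The 10 transcripts were detected at low levels in all 4 libraries, and none of them differed between the groups past the test. Values are FPKM (fragments scaled to transcript length and to the number of mapped fragments), a scale on which levels of different genes can be compared. Egfl7 was the highest in each library followed in each by Vwf and then Esam. The other 7 had means under 1 FPKM. In limma on log2(FPKM + 1), 0 of 10 were called higher and 0 lower at a Benjamini-Hochberg adjusted p under 0.05, and 0 had an unadjusted p under 0.05. Of all 15788 genes tested with them, 1.11% were called and 10.9% had an unadjusted p under 0.05. Both hemicastrated libraries lay below both controls for Pecam1, Cdh5, Kdr, Flt1 and Tek, as they did for 26.1% of the 15788 genes, while the groups overlapped for Vegfa, Tie1, Egfl7, Esam and Vwf.

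Sequence before a RefSeq transcript start is shown for Flt1, Tie1 and Egfl7. These were the 3 genes whose windows held a binding motif of ETS factors, a family known for driving endothelial genes. RefSeq (GRCm38.p6) windows were at hand for 6 of the 10 genes, Flt1, Kdr, Tie1, Tek, Egfl7 and Vegfa. The 250 bases before each start were searched on both strands for AGGAAG and CGGAAG, which are capitals below. A match occurs in 39.2% of all 32851 windows of this length, and at least 2 matches in 11.3%. Flt1 (chr5:147726012-147726261, minus strand, GRCm38.p6) and Tie1 (chr4:118489850-118490099, minus strand) held 2 matches each. The first of 3 Egfl7 windows (chr2:26580833-26581082, plus strand) held 3 matches, a number reached by 2.78% of all windows. The Tie1 window lies partly, and the Egfl7 window wholly, within the gene spans given below. The RefSeq starts that these 2 windows precede are thus internal to those spans. These sequences read 5′ to 3′ toward the start.
Flt1: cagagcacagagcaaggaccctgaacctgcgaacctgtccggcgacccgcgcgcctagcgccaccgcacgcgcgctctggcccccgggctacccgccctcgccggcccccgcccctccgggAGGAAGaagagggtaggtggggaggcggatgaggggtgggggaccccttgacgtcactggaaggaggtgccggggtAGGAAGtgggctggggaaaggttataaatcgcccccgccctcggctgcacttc
Tie1: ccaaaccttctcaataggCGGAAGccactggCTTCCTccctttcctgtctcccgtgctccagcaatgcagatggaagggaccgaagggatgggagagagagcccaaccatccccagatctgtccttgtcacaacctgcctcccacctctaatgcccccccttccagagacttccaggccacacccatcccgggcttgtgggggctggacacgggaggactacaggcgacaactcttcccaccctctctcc
Egfl7: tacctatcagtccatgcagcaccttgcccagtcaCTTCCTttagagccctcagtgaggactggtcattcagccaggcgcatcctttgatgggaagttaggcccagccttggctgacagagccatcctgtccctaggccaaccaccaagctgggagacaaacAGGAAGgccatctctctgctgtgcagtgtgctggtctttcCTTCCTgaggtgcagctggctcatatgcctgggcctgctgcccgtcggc

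The windows of the paired receptors Kdr and Tek, and both windows of Vegfa, held 0 matches. Across the 6 genes, 4 of 9 windows had at least 1, near the 39.2% of all windows. A match is a description of letters and not a measured binding site.

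Vegfa, the ligand that starts vessel growth and in the testis is made by Sertoli and Leydig cells, differed most between the mice of a group. Its level was 0.353 FPKM in hemicastrated 1 and 1.06 FPKM in hemicastrated 2, against 0.718 and 0.538 FPKM in controls 1 and 2. The hemicastrated libraries thus held both the lowest and the highest value, 3.0-fold apart, with the controls between them. The gene (ENSMUSG00000023951) lies on chromosome 17, 46016993 to 46032369 (GRCm38), and GENCODE lists 13 transcripts for it, whose splice forms share the single value of the table. The mean was 0.706 ± 0.50 FPKM in hemicastrated and 0.628 ± 0.127 FPKM in control testes (SD, n = 2 each). The log2 fold change was 0.04 (SE 0.21, 95% interval -0.48 to 0.56, limma adjusted p = 0.972). It was 0.34 without hemicastrated 1, -0.26 without hemicastrated 2 and -0.04 without control 2, so its sign changed with the library left out.

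The VEGF receptors Kdr and Flt1 were slightly lower in both hemicastrated mice, by less than the test can separate. Kdr (ENSMUSG00000062960, chromosome 5, 75932827 to 75978458), the main signalling receptor of endothelium, stood at 0.370 and 0.408 FPKM in hemicastrated libraries against 0.496 and 0.435 FPKM in controls. The gap between the closest libraries of the 2 groups was small, and the log2 fold change was -0.08 (SE 0.10, 95% interval -0.33 to 0.17, limma adjusted p = 0.845). It was -0.05 without control 1. Flt1 (ENSMUSG00000029648, chromosome 5, 147561604 to 147726011), which binds Vegfa tightly and whose soluble form acts as a trap for it, stood at 0.523 and 0.589 FPKM against 0.694 and 0.672 FPKM in controls. Its controls agreed closely and both exceeded the hemicastrated values, with a log2 fold change of -0.11 (SE 0.11, 95% interval -0.38 to 0.15, limma adjusted p = 0.771). Membrane and soluble forms of Flt1 cannot be separated in a value per gene. Flt1 exceeded Kdr in every library, with ratios of 1.41 and 1.45 in hemicastrated and 1.40 and 1.55 in control mice. The ratio of Flt1 RNA of all forms to Kdr RNA thus overlapped between the groups.

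Of the angiopoietin receptors, Tek had values that did not overlap between the groups and Tie1 had values that did. Tek (ENSMUSG00000006386, chromosome 4, 94739289 to 94874976), the kinase that binds angiopoietins and keeps vessels quiescent, was at 0.504 and 0.297 FPKM in hemicastrated libraries and 0.781 and 0.554 FPKM in controls. Hemicastrated 2 was the lowest, and hemicastrated 1 came close to control 2. The means were 0.401 ± 0.147 and 0.667 ± 0.161 FPKM in hemicastrated and control mice (SD, n = 2 each), the widest relative gap among the 10 genes. The log2 fold change was -0.25 (SE 0.13, 95% interval -0.58 to 0.08, limma adjusted p = 0.588). It was -0.14 without hemicastrated 2, -0.15 without control 1 and -0.36 without hemicastrated 1. Tie1 (ENSMUSG00000033191, chromosome 4, 118471191 to 118490061), an orphan receptor that modulates Tek, was the lowest of the 10 in 3 of 4 libraries. It was at 0.216 and 0.350 FPKM in hemicastrated mice against 0.404 and 0.242 FPKM in controls, so each group had a high and a low mouse. Its log2 fold change was -0.04 (SE 0.12, 95% interval -0.33 to 0.24, limma adjusted p = 0.929). The ratio of Tek to Tie1 was 2.34 in hemicastrated 1 and 0.850 in hemicastrated 2, against 1.93 and 2.28 in the controls.

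The adhesion genes of endothelial junctions divided in the same manner. Cdh5 (ENSMUSG00000031871, chromosome 8, 104101625 to 104144511), the cadherin of endothelial adherens junctions, was at 0.582 and 0.441 FPKM in hemicastrated mice and 0.976 and 0.653 FPKM in controls. Control 1 lay above the other 3 libraries, and the log2 fold change of -0.26 (SE 0.14, 95% interval -0.60 to 0.08, limma adjusted p = 0.586) became -0.13 without it. An antisense gene, Gm29682, overlaps Cdh5, and no strand-marking step is described, so reads of the 2 cannot be told apart. Pecam1 (ENSMUSG00000020717, chromosome 11, 106654217 to 106750628), an immunoglobulin-type adhesion molecule that platelets and some leukocytes also carry, was at 0.397 and 0.488 FPKM against 0.640 and 0.574 FPKM in controls. Its spread within each group was small, and its log2 fold change was -0.16 (SE 0.11, 95% interval -0.42 to 0.11, limma adjusted p = 0.673). Esam (ENSMUSG00000001946, chromosome 9, 37528078 to 37538319), a tight junction molecule of endothelium and platelets, was at 1.06 and 1.41 FPKM in hemicastrated mice against 1.39 and 1.16 FPKM in controls. Both groups covered the same range for Esam, and its log2 fold change was -0.03 (SE 0.16, 95% interval -0.41 to 0.35, limma adjusted p = 0.974).

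The secreted products Egfl7 and Vwf, the most abundant of the set, overlapped between the groups. Egfl7 (ENSMUSG00000026921, chromosome 2, 26580014 to 26593120), a matrix protein that guides vessel tube formation, was at 5.49 and 5.07 FPKM in hemicastrated mice against 6.07 and 3.72 FPKM in controls. The 2 controls enclosed the hemicastrated values. Its log2 fold change was 0.12 (SE 0.20, 95% interval -0.37 to 0.61, limma adjusted p = 0.886) and -0.17 without control 2. A read-through gene on the same strand, Gm20532, and the end of Agpat2 overlap Egfl7, which makes its value uncertain where reads are shared. Vwf (ENSMUSG00000001930, chromosome 6, 125546774 to 125686679), the clotting factor stored in endothelial granules and also made by megakaryocytes, was at 1.37 and 1.81 FPKM in hemicastrated mice against 1.51 and 2.47 FPKM in controls. Control 2 was the highest, and the log2 fold change of -0.20 (SE 0.20, 95% interval -0.68 to 0.29, limma adjusted p = 0.797) was 0.04 without it.

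Egfl7 also hosts the endothelial microRNA miR-126a, known for tuning the response to Vegfa. Its mature 3-prime strand lies at chr2:26591402-26591423 (plus strand, GRCm38.p6), intronic in 8 of the 9 Egfl7 transcripts that span it, and is shown with its seed (bases 2 to 8) in capitals. The microRNA itself was not measured in these libraries, and the Egfl7 values above are those of the host gene.
mmu-miR-126a-3p: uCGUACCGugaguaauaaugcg

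**Figure D1:**
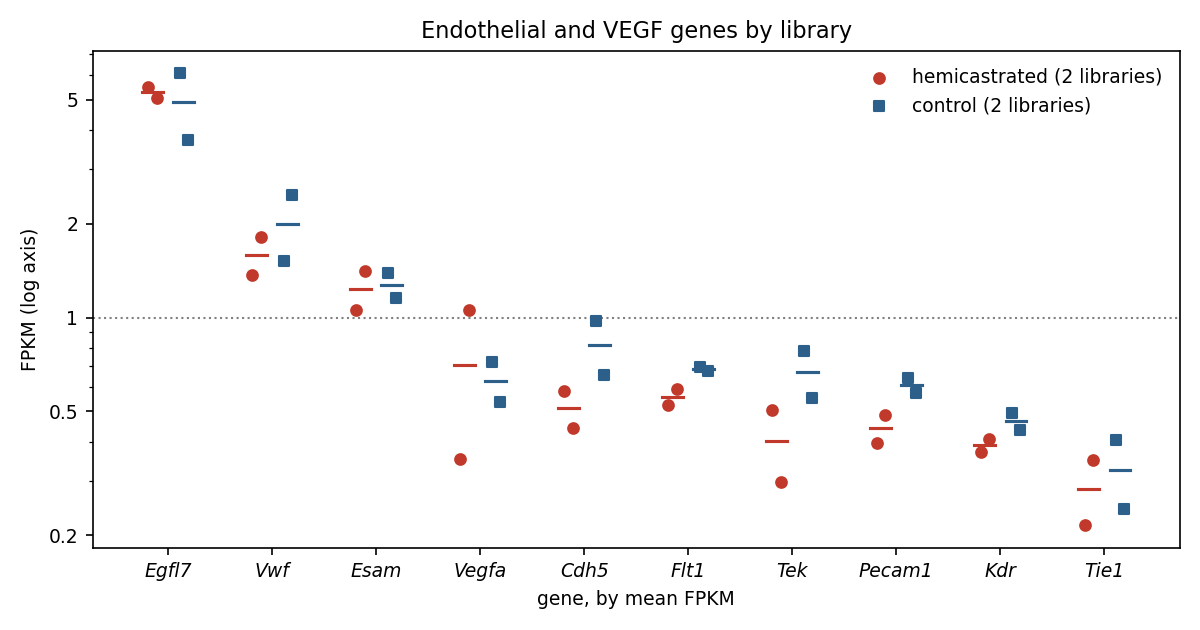
FPKM (log axis) of the 10 genes in 2 hemicastrated (circles) and 2 control (squares) testes, ordered by mean level; short bars are group means and the dotted line is 1 FPKM. Egfl7 lies between 3.72 and 6.07 FPKM in every library, 7 genes have means under 1 FPKM, and Vegfa has its lowest and highest value in the hemicastrated group.

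By level, the set fell into a high gene, an intermediate pair and 7 low genes. The mean over 4 libraries was 5.09 FPKM for Egfl7, which ranks above 69.1% of all genes in the table, 1.79 FPKM for Vwf and 1.26 FPKM for Esam. The range of Egfl7 lay above that of every other gene of the set. The ranges of Vwf and Esam met between 1.37 and 1.41 FPKM, although Vwf was above Esam within each library. Vegfa followed at a mean of 0.667 FPKM, Cdh5 at 0.663, Flt1 at 0.620, Tek at 0.534, Pecam1 at 0.525, Kdr at 0.427 and Tie1 at 0.303 FPKM. The range of each of these overlapped with that of its neighbours in the order. Esam and Vegfa touched only through the value of Vegfa in hemicastrated 2.

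Few genes in the whole table were called. Only Egfl7, Esam and Vwf averaged 1 FPKM or more, the filter of the main fit across 11343 genes, in which 1.30% of genes were called, 1.19% lower and 0.106% higher, and 10.5% had an unadjusted p under 0.05. The other 7 were tested in a second fit across the 15788 genes that averaged 0.1 FPKM or more, which called 1.11% of genes, 1.05% lower and 0.0697% higher. Their intervals and p-values above come from that fit. With background shares this small, 0 of 10 is not a result about these genes. An exact permutation test of a single gene, 2 libraries against 2, cannot go below a two-sided p of 0.333.

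In direction, 8 of the 10 genes had a negative log2 fold change, against 58.0% of the 15788 genes (56.6% of those from 1 FPKM and 61.7% of those from 0.1 to under 1 FPKM), and the median was -0.10, against -0.03. Both hemicastrated libraries were below both controls in 5 of 10 genes, against 26.1% of the 15788 genes and 29.3% of the 4445 genes with a mean from 0.1 to under 1 FPKM. Both were above both controls in 0 of 10, against 15.3% and 12.8%. The 5 genes without overlap were all among the 7 with means under 1 FPKM. Of the 3 genes above 1 FPKM, 0 were below and 0 above without overlap, against 24.8% and 16.3% of the 11343 genes. The lower placement depended on how the libraries were scaled. After quantile normalization, which forces the same distribution of values on each library, 5 of 10 genes had a negative log2 fold change, against 44.9% of all genes. There 0 of 10 were below and 0 of 10 above both controls without overlap, against 18.4% and 23.5% of all genes. In TPM the 5 genes below without overlap were again Tek, Pecam1, Flt1, Cdh5 and Kdr, against 27.8% of all genes. In TPM 0 of 10 were above, against 14.4%.

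A pseudocount of 1 compresses differences of genes this low, so the same fit was made on log2(FPKM + 0.1), where 1.13% of the 15788 genes and 0 of the 10 were called. There Tek had a log2 fold change of -0.63 (95% interval -1.50 to 0.24, limma adjusted p = 0.606) and Cdh5 of -0.57 (-1.34 to 0.21, limma adjusted p = 0.604). Pecam1 was at -0.39 (-1.10 to 0.32), Flt1 at -0.26 (-0.91 to 0.40) and Kdr at -0.21 (-0.94 to 0.52). On this scale the interval of Vegfa ran from -1.19 to 1.20 around a log2 fold change of 0.005. The intervals of Egfl7 (-0.45 to 0.75) and Esam (-0.66 to 0.57) were narrower. For Tek, Cdh5 and Pecam1 the data therefore leave room for values from more than 1 log2 unit lower to slightly higher after hemicastration.

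**Figure D2:**
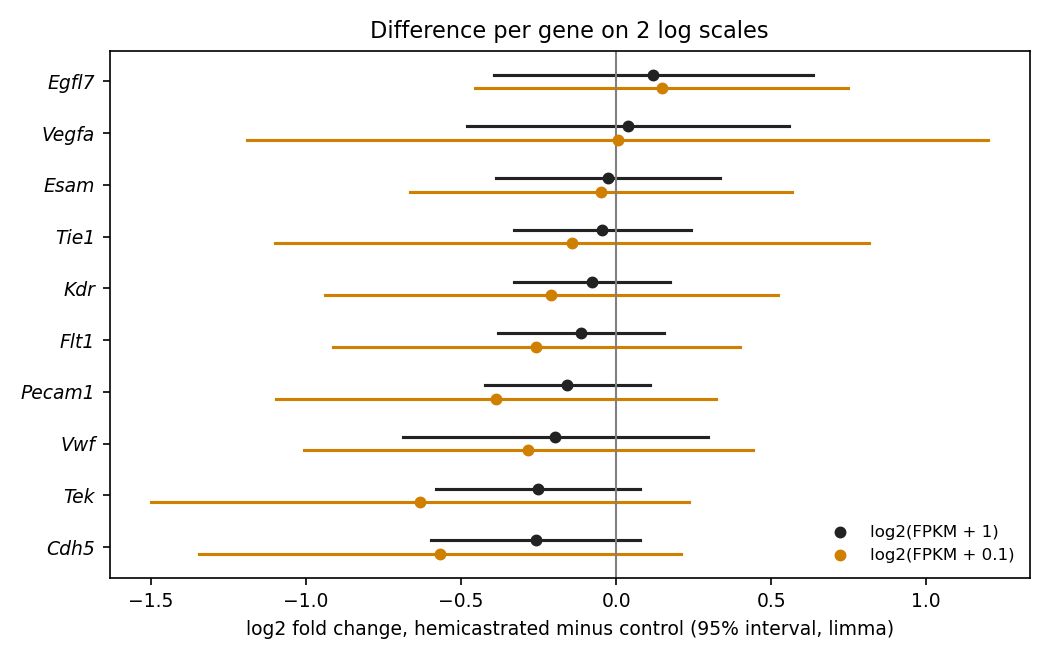
Log2 fold change (hemicastrated minus control) with its 95% interval from limma for each of the 10 genes, on log2(FPKM + 1) in black and on log2(FPKM + 0.1) in orange, both from fits across 15788 genes. Every interval includes 0, and those on the second scale are wider, from -1.50 to 0.24 for Tek.

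Summed over the 10 genes, the level was 10.87 and 11.93 FPKM in hemicastrated and 13.68 and 11.02 FPKM in control testes, with overlap. Without Egfl7, which makes up the largest share, the other 9 summed to 5.37 and 6.86 FPKM against 7.61 and 7.30 FPKM. For Kdr and Flt1 together the sums were 0.893 and 0.997 FPKM against 1.19 and 1.11 FPKM. Tek and Tie1 together were at 0.720 and 0.647 FPKM against 1.19 and 0.796 FPKM.

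Some other cell type markers differed between the groups and others did not. The cause, and their part in the endothelial values, was not tested. Of 5 smooth muscle and peritubular myoid markers (Acta2, Cnn1, Tagln, Myh11, Tpm2), 4 fell and none of the 5 was at 0, with summed levels of 26.6 to 29.6 FPKM in hemicastrated against 72.5 to 93.9 FPKM in control libraries. Of 6 epididymis markers, Crisp1, Adam7 and Defb2 fell, Rnase10 did not pass and Lcn5 and Lcn8 were listed at 0 in all 4 libraries. The summed level was 1.63 to 1.74 FPKM in hemicastrated against 612 to 865 FPKM in control libraries, and Adam7 and Defb2 were listed at 0 in both hemicastrated ones. No macrophage marker (Csf1r, Cd68, Adgre1, C1qa) passed, at sums of 10.1 to 11.9 against 10.9 to 13.8 FPKM, nor did the erythroid markers Hbb-bs and Hba-a1, at 18.7 to 29.1 against 29.3 to 32.5 FPKM. Testis identity was plain in both groups. Sertoli markers summed to 20.4 to 20.9 against 16.7 to 20.2 FPKM and Leydig markers to 1721 to 1839 against 1452 to 1538 FPKM. Spermatid markers summed to 10806 to 11269 against 9335 to 10401 FPKM. In the second fit 0 genes of these 3 lists were called, against 1.11% of all genes. Log2 fold changes were negative for 2 of 5 Sertoli, 2 of 4 Leydig and 0 of 3 spermatid markers, against 58.0% of all genes.

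**Figure D3:**
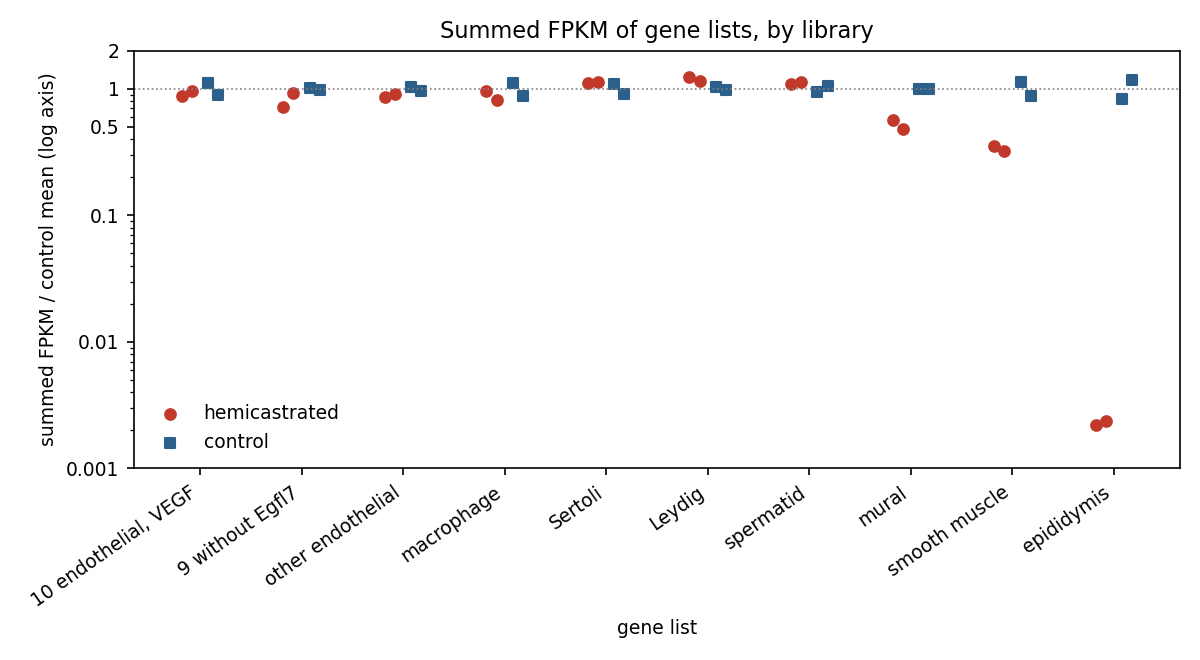
Summed FPKM of each gene list in each library divided by the mean of the 2 control libraries (log axis), hemicastrated as circles and control as squares. The sums of the 10 endothelial and VEGF genes, and of macrophage genes, overlap between the groups. Those of the 9 without Egfl7, and of other endothelial, mural, smooth muscle and epididymis genes, are lower in both hemicastrated libraries. Sertoli, Leydig and spermatid sums are higher in both, with 0 genes of these lists called, against 1.11% of all genes tested. The mural sums without Des, which are not drawn, overlap.

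Further VEGF family members were also low and did not pass the test. Of 10 VEGF ligands and receptors, which include Vegfa, Kdr and Flt1, 0 were called in either fit and the median log2 fold change was -0.09 in the second fit. Vegfb, a ligand of Flt1 that is linked to fatty acid uptake, was at 2.59 and 2.50 FPKM in hemicastrated against 3.59 and 2.75 FPKM in control mice (log2 fold change -0.23, limma adjusted p = 0.675). The value was -0.08 without control 1 and -0.37 without control 2. Vegfd, a lymphatic growth factor, was at 0.972 and 1.02 FPKM against 2.12 and 1.65 FPKM, without overlap (log2 fold change -0.53, limma adjusted p = 0.282). Its receptor Flt4 was at 1.22 and 1.62 FPKM against 1.53 and 1.26 FPKM, with overlap. Of the angiopoietin and Tie list of 6, 5 were tested in the second fit and 0 were called. Its phosphatase Ptprb, which restrains Tek, was at 0.397 and 0.345 FPKM against 0.655 and 0.539 FPKM (log2 fold change -0.22, limma adjusted p = 0.555). Angpt2, the ligand that destabilises vessels, was at 0.199 in hemicastrated 1 and 0.782 FPKM in hemicastrated 2, against 0.305 and 0.214 FPKM in controls. Like Vegfa, Angpt2 was highest in hemicastrated 2 and lowest in hemicastrated 1. An unrelated gene, Mcph1, overlaps Angpt2 on the opposite strand.

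The listed signal transducers downstream of Kdr ranged from 0 to a mean of 98.5 FPKM. Whole-organ RNA does not show which cells these values come from. Of 43 genes, 35 were tested in the main fit and 42 in the second. In either, 0 were called, against 1.30% and 1.11% of all genes tested. The median was -0.01 in the main fit and -0.04 in the second. Both hemicastrated libraries were below both controls in 14 of the 42 (33.3%) and above both in 1 (2.38%), against 26.1% and 15.3% of all genes. Sh2d2a, an adaptor of activated lymphocytes and endothelium, was listed at 0 in all 4 libraries. The highest were the testis forms of calcineurin, the phosphatase that activates NFAT factors. Its catalytic subunit Ppp3cc was at 96.7 and 99.4 FPKM in hemicastrated against 99.0 and 99.0 FPKM in control mice, and its regulatory subunit Ppp3r2 at 85.0 and 91.4 against 86.4 and 89.8 FPKM. The kinase Mapk3 was at 58.2 and 60.7 against 70.2 and 57.4 FPKM and its activator Map2k2 at 49.3 and 47.4 against 50.5 and 43.6 FPKM. All 4 genes overlapped between the groups. Chosen after their values were seen, Pla2g4a, which releases arachidonic acid, was at 0.707 and 0.568 against 1.31 and 1.39 FPKM (log2 fold change -0.52, limma adjusted p = 0.192 in the second fit). Sphk1, which makes sphingosine phosphate, was at 0.394 and 0.467 against 1.10 and 0.838 FPKM (limma adjusted p = 0.248).

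Oxygen sensing, which sets Vegfa output in many tissues, was represented by abundant regulators without a call. Of 10 genes, 7 were tested in the main fit and 0 were called (median -0.10). The prolyl hydroxylase Egln2 was at 165 and 148 FPKM in hemicastrated against 155 and 135 FPKM in control mice. Vhl, which marks HIF proteins for destruction, was at 66.4 and 71.7 against 66.9 and 70.8 FPKM. Both overlapped between the groups. The factor Hif1a was at 3.51 and 2.62 against 3.81 and 4.26 FPKM, without overlap (log2 fold change -0.32, limma adjusted p = 0.565). Its value was -0.16 without hemicastrated 2 and -0.48 without hemicastrated 1. Hif1an, which blocks its activation, was at 6.76 and 6.31 against 6.14 and 6.72 FPKM.

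Among 45 other endothelial genes, 15 were tested in the main fit and 40 in the second, and 0 were called in either (medians -0.13 and -0.08). Summed, they were at 56.6 and 59.4 FPKM in hemicastrated against 67.3 and 63.0 FPKM in control mice. The highest was Jam3, a junction molecule that germ cells also carry, at 13.5 and 13.2 against 13.1 and 12.3 FPKM, followed by the transcription factor Gata2 at 4.59 and 7.12 against 6.41 and 8.13 FPKM. Jam2, the binding partner of Jam3, was at 4.83 and 5.35 against 4.39 and 5.11 FPKM. Cav1, the caveola protein of endothelium and smooth muscle, was at 2.79 and 1.92 against 4.21 and 5.03 FPKM, without overlap (log2 fold change -0.75, limma adjusted p = 0.177).

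The remaining vascular lists held the only call. In the mural cell list, pericytes and vascular smooth muscle, Des fell to 1.0 and 1.08 FPKM in hemicastrated mice, against 3.33 and 4.24 FPKM in controls (log2 fold change -1.22, limma adjusted p = 0.0183). Desmin is a filament of all muscle cells and so also of peritubular cells, and an antisense gene, Gm15179, overlaps it. Des missed the threshold when all genes above 0 were tested (limma adjusted p = 0.0942). It also did when control 1 was left out (log2 fold change -1.36, limma adjusted p = 0.0675) and when control 2 was (-1.09, limma adjusted p = 0.143), fits in which the lone control is assumed to vary like the hemicastrated pair. Without Des, the other 9 mural genes summed to 3.23 and 2.46 FPKM in hemicastrated against 4.10 and 3.12 FPKM in control mice, with overlap. The pericyte gene Rgs5 was at 1.15 and 0.838 against 1.80 and 1.27 FPKM (limma adjusted p = 0.573), Pdgfb, which recruits pericytes, at 0.659 and 0.376 against 0.590 and 0.450 FPKM, and the potassium channel gene Kcnj8 at 0.324 and 0.399 against 0.473 and 0.408 FPKM. Of the lymphatic list of 6, 4 were tested in the second fit and 0 were called, and Foxc2 and Ccl21a were listed at 0 in every library. Prox1, the master factor of lymphatic identity, was at 1.48 and 1.67 against 1.40 and 2.01 FPKM, with antisense genes overlapping it. Podoplanin, Pdpn, was at 0.0991 and 0.195 against 0.686 and 0.847 FPKM (log2 fold change -0.62, limma adjusted p = 0.0936 in the second fit). Lyve1, a hyaluronan receptor, was at 0.101 and 0.0354 against 0.166 and 0.306 FPKM.

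In the Notch list of 10 genes, 5 were tested in the main fit and 0 were called. The ligand Jag1 was at 4.67 and 6.67 FPKM in hemicastrated against 6.06 and 6.98 FPKM in control mice and Jag2 at 1.47 and 1.39 against 1.64 and 1.41 FPKM. The receptor Notch4, typical of endothelium, was at 0.826 and 0.896 against 0.548 and 1.92 FPKM, and the target Hes1 at 2.41 and 2.79 against 1.79 and 3.42 FPKM. Notch4 and Hes1 had both extremes in the controls. Of 10 angiogenesis inhibitors, 5 were tested in the main fit and 0 were called (median -0.11). Vash2, a vasohibin, was at 14.7 and 15.5 against 17.3 and 15.5 FPKM, the protease inhibitor Timp3 at 3.76 and 3.79 against 4.74 and 3.57 FPKM, and Serpinf1 at 3.61 and 2.23 against 5.32 and 3.02 FPKM. Col18a1, the collagen that yields endostatin, was at 1.10 and 0.830 against 1.82 and 1.71 FPKM (log2 fold change -0.49, limma adjusted p = 0.307).

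**Figure D4:**
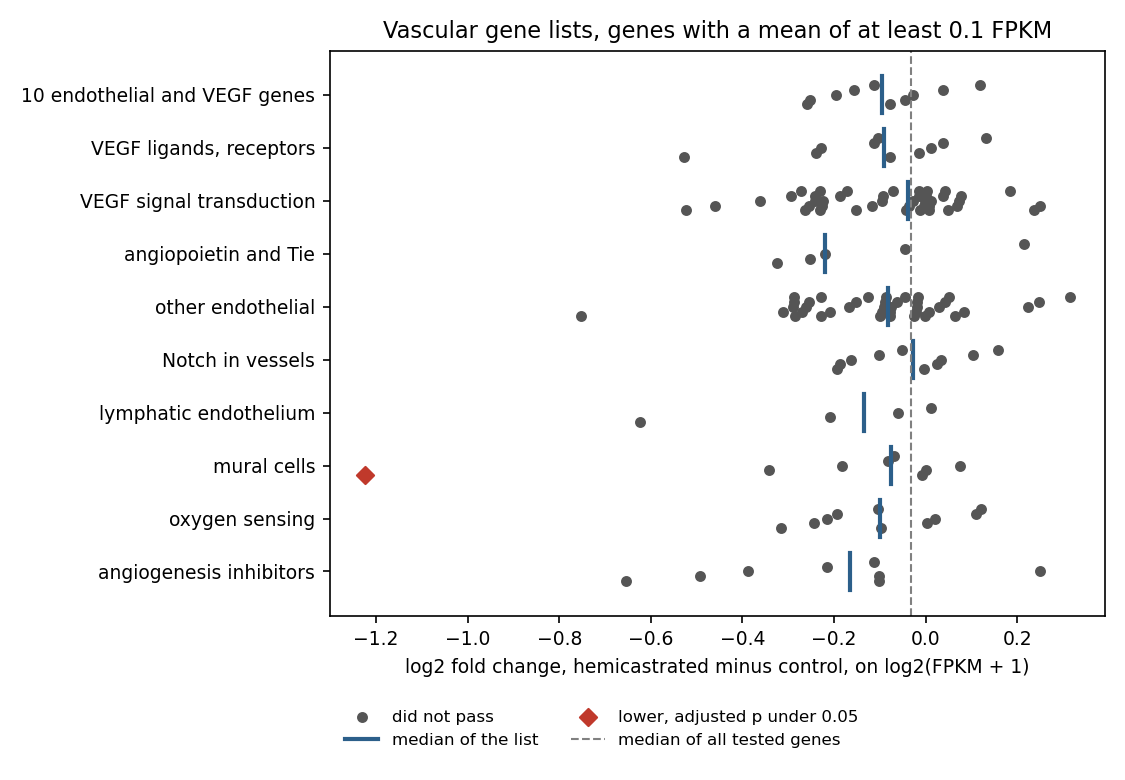
Log2 fold change on log2(FPKM + 1) of each gene that averaged 0.1 FPKM or more, by list; blue bars are list medians, the dashed line is the median of the 15788 genes, and a diamond is a gene with an adjusted p under 0.05. The 10 endothelial and VEGF genes lie between -0.26 and 0.12, and Des in the mural list is the only diamond.

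Over the 143 genes of these 9 lists that are not among the 10, 131 were tested in the second fit. Of these, 1 was called lower and 0 higher, against 1.05% and 0.0697% of all 15788 genes. An unadjusted p under 0.05 was reached by 9.92% of them, against 10.9% of all 15788 genes. Both hemicastrated libraries were below both controls in 49 of the 131 (37.4%, against 26.1% of all) and above both in 6 (4.58%, against 15.3%). Only 73 of the 131 averaged 1 FPKM or more. Among all genes from 0.1 to under 1 FPKM the shares were 29.3% below and 12.8% above. Placement after quantile normalization was examined only for the 10 genes, of which 0 were then below. Their median log2 fold change was -0.09, against -0.03 over all genes.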

How the data were processed

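RNA of 2 hemicastrated and 2 control right testes was sequenced after poly(A) selection with random priming, per the labels' protocols, which describe no strand-marking step. The authors deposited FPKM, 1 value per gene and library. Per the submitters' processing notes, the build was GRCm38 and the tools were Cufflinks 2.2.1 and TopHat2 2.0.11, with roles and annotation not given in the sources used here. FPKM carry no counts, so depth is unknown; summed FPKM ran from 343105 to 353135 per library. An exact 0 can be a failed estimate, since 0 stands for the ribosomal protein genes Rpl17 and Rpl13 in every one of the 4 libraries.

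Symbols and gene positions came from GENCODE M21 (GRCm38), which named 21806 of 22073 identifiers. Groups came from sample titles. Genes averaging 1 FPKM or more were compared on log2(FPKM + 1) with limma 3.58.1 (R 4.3.3), with a variance trend, two-sided Benjamini-Hochberg adjustment and no covariate. Genes from 0.1 FPKM were fitted likewise. The fit was tested on simulated data. Their errors were normal, with spreads drawn from the fit itself, so departures from that model were not covered. P-values set each difference against the spread between these libraries, which limma shares in part across genes. The members and lists were chosen with earlier results of these data known. Other genes were named by rule: called genes of a list, then its 4 highest by mean FPKM. Genes of the other cell type lists are given as sums. Some genes were chosen after their values were seen and are marked so.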

Additional observations from a re-analysis of the deposited data

How the results depend on the processing

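No call among the 10 endothelial and VEGF genes was made under any of the alternatives run: filters of none, 0.1 or 5 FPKM, a pseudocount of 0.1, quantile normalization, TPM, no variance trend, robust hyperparameters, the replicate block and each library left out, with adjusted p-values from 0.531 to 0.999. Of the 10, only Egfl7 was fitted with the 5 FPKM filter, as Vwf and Esam averaged less. The 7 genes under 1 FPKM were also not fitted with no trend or robust hyperparameters. For them quantile normalization, TPM, the replicate block and each library left out were run with the 0.1 FPKM filter, a combination chosen after seeing the data. With a library left out, the lone library of its group is assumed to vary like the other group. Kdr had a log2 fold change of 0.0058 under quantile normalization, and Cdh5 of -0.13 to -0.39 when a library was left out. Counts over all genes moved more: lower genes numbered 63 among genes from 5 FPKM and 78 to 156 with a library left out, and higher genes 3 with no filter, 7 at 5 FPKM and 0 to 26 with a library left out. By library, lower genes numbered 78 without control 2, and higher genes 24 without hemicastrated 1, 26 without hemicastrated 2, 4 without control 1 and 0 without control 2, where 369 higher genes had an unadjusted p under 0.05 in limma.

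The number pairing of libraries (hemicastrated 1 with control 1, and so on) is not explained in the labels, and same-numbered deviations correlated at 0.0137 across 11343 genes. With the replicate block 167 genes were lower and 30 higher, and 0 of the 10 genes were called.

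No gene whose log2 fold change changed sign was called. Among the 7 genes under 1 FPKM, the sign changed for Kdr (above), Vegfa, at -0.26 to 0.34, and Tie1, at -0.14 to 0.044 over all alternatives. Of the other low genes, Angpt2 ran from -0.071 to 0.50 and Pdgfb from -0.14 to 0.13 with a library left out, and Pdgfb was 0.083 under quantile normalization. With a library left out these values ran as Egfl7 -0.17 to 0.41, Esam -0.14 to 0.088, Vwf -0.43 to 0.038, Flt4 -0.11 to 0.13, Hes1 -0.30 to 0.37, Hif1an -0.036 to 0.077, Jag1 -0.41 to 0.032, Jag2 -0.12 to 0.016, Jam2 -0.0066 to 0.18, Map2k2 -0.061 to 0.15, Mapk3 -0.24 to 0.049, Notch4 -0.65 to 0.27, Ppp3cc -0.033 to 0.0054, Ppp3r2 -0.051 to 0.053, Prox1 -0.22 to 0.10, Timp3 -0.27 to 0.063, Vhl -0.050 to 0.059. Under other scalings they were Esam 0.083 (quantile), Jag2 0.053 (quantile), Notch4 0.056 (quantile), Ppp3r2 -0.022 (quantile), Ppp3r2 -0.0097 (TPM), Prox1 0.045 (quantile), Vhl -0.017 (quantile), Vhl -0.0067 (TPM). The cause was not tested. Read depth is unknown, so no detection limit could be set for genes under 1 FPKM.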
